A study of Mus musculus with 12 samples.

Results

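Aminoacyl-tRNA synthetases load each transfer RNA with its amino acid. The 36 nuclear genes for these enzymes were followed here, 20 for the cytosolic enzymes and 16 for the mitochondrial ones, out of 34245 genes in the expression table. They were chosen by function, as the rows of the table whose symbol, current or older, belongs to an enzyme of this family. Gars and Kars each encode both the cytosolic and the mitochondrial form of their enzyme and were counted as cytosolic, and Mars1 stands in the table under its older symbol Mars.

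The study asked how mouse blastocysts respond when the stress kinase p38-MAPK is inhibited while the primitive endoderm is being specified. Embryos of F1 hybrid parents (C57Bl6 x CBA/W) were grown in KSOM medium with added amino acids until E3.5 and then moved in pools of 30 to the same medium with either the solvent DMSO (control) or 20 µM of the p38-MAPK inhibitor SB220025 (p38-MAPKi). Pools were lysed 4, 7 or 10 h later, with 2 pools for each treatment and time, and poly(A) RNA of each pool was sequenced as 1 library. Every value below comes from 1 of these 12 libraries, given in the order replicate 1, replicate 2, as log2 RPKM, the number of reads scaled by gene length and library size.

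In the cytosol these enzymes feed all general protein synthesis, and several of them sit together with scaffold proteins in the multisynthetase complex. In mitochondria a separate set, imported from the cytosol, serves the few proteins encoded by mitochondrial DNA. When amino acids run short, uncharged transfer RNA activates the eIF2 kinase GCN2, and the transcription factor ATF4 then drives amino acid transporters, biosynthetic enzymes and many cytosolic synthetase genes.

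The libraries held 11242313 to 24457312 reads. Replicate 1 of the 7 h inhibitor group had the fewest, with a read for 14006 genes against 16348 to 17650 in the others, and the replicates of that group had the lowest correlation across genes (r = 0.924, against 0.969 to 0.981 in the other groups). Replicate 1 of the 4 h control group stood apart in another way, with far more Lars2 and more signal in rows that overlap ribosomal RNA repeats. Lineage markers of the blastocyst were read in every library. The 6 trophectoderm markers summed to 1730 to 2550 RPKM per library, led by Krt18, and the 4 epiblast markers to 500 to 661, led by Pou5f1. The 4 primitive endoderm markers summed to 91.8 to 141. Most of that was Gata6, with a median of 105 RPKM, against 7.9 for Pdgfra, 2.4 for Sox17 and 1.8 for Gata4. The study describes uncommitted inner cells that hold both GATA6 and NANOG, so this sum does not show specified primitive endoderm. Markers of cells that could be carried over were near 0. Cumulus and granulosa markers summed to at most 0.926 RPKM, oviduct markers to 1.29 and blood markers to 1.06, with Amh, Ovgp1 and Hba-a1 the most abundant. Each library is a pool of whole embryos without a spike-in, so values are shares of a library, and fewer cells of a type and less RNA per cell cannot be told apart. The p-values measure the spread between these pools only.

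All 36 synthetase mRNAs were present at 1 RPKM or more in every library, and all were tested in every comparison. The cytosolic mRNAs were the more abundant class, with a median of 38.6 to 53.4 RPKM per library against 6.19 to 9.53 for the mitochondrial ones. Within the cytosolic class the median over libraries ran from 3.37 log2 RPKM for Cars, the cysteine enzyme, to 7.42 for Nars, the asparagine enzyme. Within the mitochondrial class it ran from 1.03 for Fars2, the phenylalanine enzyme, to 5.39 for Lars2, the leucine enzyme. Fars2 also had the fewest reads of any member in any library, 123.

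For 13 amino acids the table holds 1 cytosolic and 1 mitochondrial enzyme gene that share a name. In 11 of these pairs the cytosolic mRNA was higher in all 12 libraries. Asparagine showed the widest gap, with Nars a median of 6.17 log2 units above Nars2. Isoleucine was close, with Iars a median of 0.71 above Iars2 and below it only in replicate 1 of the 7 h inhibitor group, at -0.06. Leucine was the other exception: Lars was above Lars2 in 4 of the 12 libraries, and the difference between them ran from -3.16 to 0.30.

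**Figure D1:**
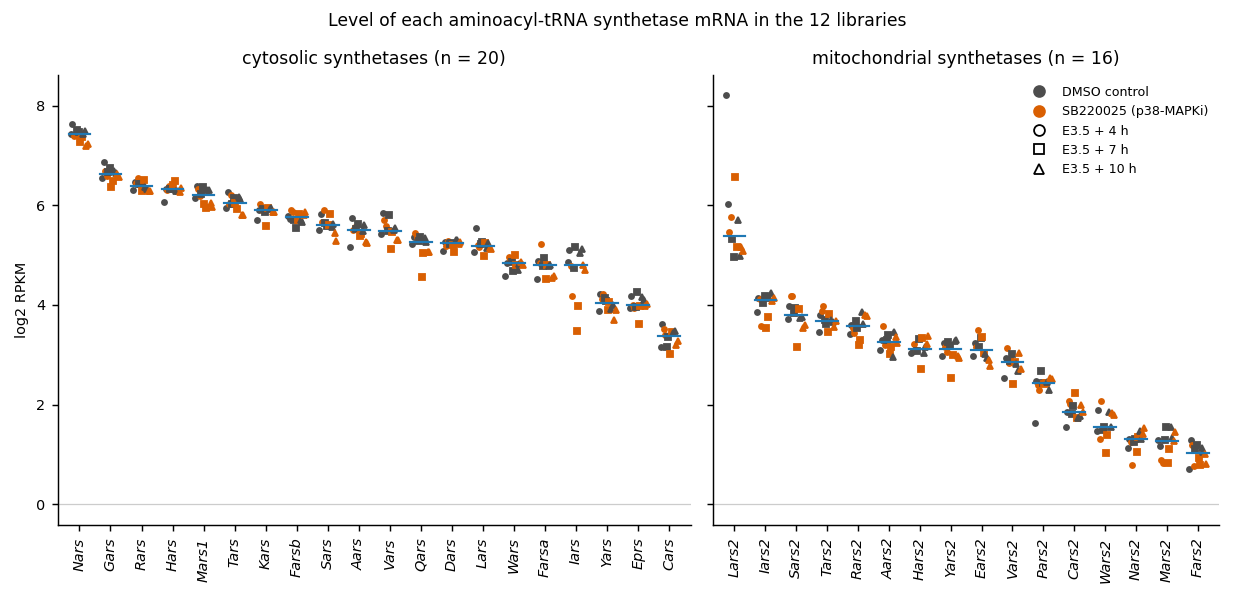
Level of each synthetase mRNA (log2 RPKM) in the 12 libraries, cytosolic members at left and mitochondrial members at right, each ordered by its median (blue line); grey is DMSO, orange is SB220025, and the marker shape gives the time. Cytosolic medians lie between 3.37 and 7.42, mitochondrial ones between 1.03 and 5.39, and the highest single Lars2 value, 8.21, belongs to a 4 h control library.

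After 4 h of inhibition 1 synthetase was called. The test of limma takes a variance for each gene from its own spread and from that of genes at like levels, and at 4 h it used the latter alone. Of the 36 synthetases 1, the mitochondrial Lars2, passed the limma test at an adjusted p under 0.05, beside 0.909% of the 10781 genes tested, and limma with the voom model on read counts called 0 synthetases and 0 genes in all. The Lars2 call rests on replicate 1 of the 4 h control, without which its value was -0.42. Without replicate 1 of the inhibitor group Iars was at -0.81 and Lars2 at -1.365. The median log2 fold change was 0.08 over the cytosolic members and 0.05 over the mitochondrial ones, beside 0.07 over all tested genes. Every inhibitor library lay below every control library for 4 members, against 13.7% of all genes, and above for 8, against 26.8%. Quantile normalization turned the cytosolic median to -0.06, beside 0.0017 over all genes. Voom with TMM scaling turned the medians to -0.003 and -0.02, beside -0.0046 over all genes. Leaving out replicate 1 of the 4 h control turned them to -0.09 and -0.12, beside -0.03 over all genes. Leaving out replicate 2 of that control gave 0.18 and 0.25, beside 0.16 over all genes.

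At 7 h most members were lower under the inhibitor, and so were most genes. The median over all tested genes was -0.14, and the cytosolic median was the same, -0.14. The mitochondrial median was -0.28, or -0.14 relative to all genes. Of the cytosolic members 1, Iars, passed the test, beside 2.13% of 10940 genes. Without replicate 2 of the 7 h control, where the Iars call was lost, the class medians were -0.13 and -0.24, beside -0.14 over all genes. Without replicate 2 of the inhibitor group the shallow library stood alone. The medians were then -0.23 and -0.37, beside -0.20 over all genes. The inhibitor libraries lay wholly below the controls for 17 members, against 38.7% of all genes, and wholly above for 1, against 23%. Centring each library on its median moved the cytosolic median to 0.06 and the mitochondrial one to -0.08, beside 0.05 over all genes. Relative to all genes they stayed at 0.0018 and -0.14. Without replicate 1 of the inhibitor group, the shallow library, the medians were -0.09 and -0.14 beside -0.06 over all genes.

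At 10 h the classes had different medians. The cytosolic median was -0.19, with 17 of 20 members lower under the inhibitor, while the mitochondrial median was -0.01, with 8 of 16 lower; over all tested genes the median was -0.02. No difference between the classes was tested, since members are not replicates. Every inhibitor library was below every control library for 17 cytosolic and 4 mitochondrial members, against 29.6% of the 10959 genes tested, and above for 1 and 3, against 22.6%. The changes were small, and limma called 0 synthetases, beside 0.803% of genes; 12 members had an unadjusted p under 0.05, of which 10 were cytosolic and lower, beside 2172 of 10959 genes. With voom and TMM scaling 4 cytosolic members were called, all lower: Aars, Iars, Mars1 and Tars, for alanine, isoleucine, methionine and threonine, beside 4.75% of 10959 genes. Without replicate 2 of the 10 h control limma called 1, Lars2, beside 0.723% of 10793 genes. The cytosolic median kept its sign under median centring (-0.19), quantile normalization (-0.14), TMM (-0.17) and removal of the length trend (-0.20), and without each library in turn. The mitochondrial median turned to 0.01 under quantile normalization and 0.03 under TMM, beside -0.0042 and 0.0012 over all genes. It ran from -0.05 without replicate 2 of the control to 0.08 without replicate 1, beside -0.03 and -0.02 over all genes.

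**Figure D2:**
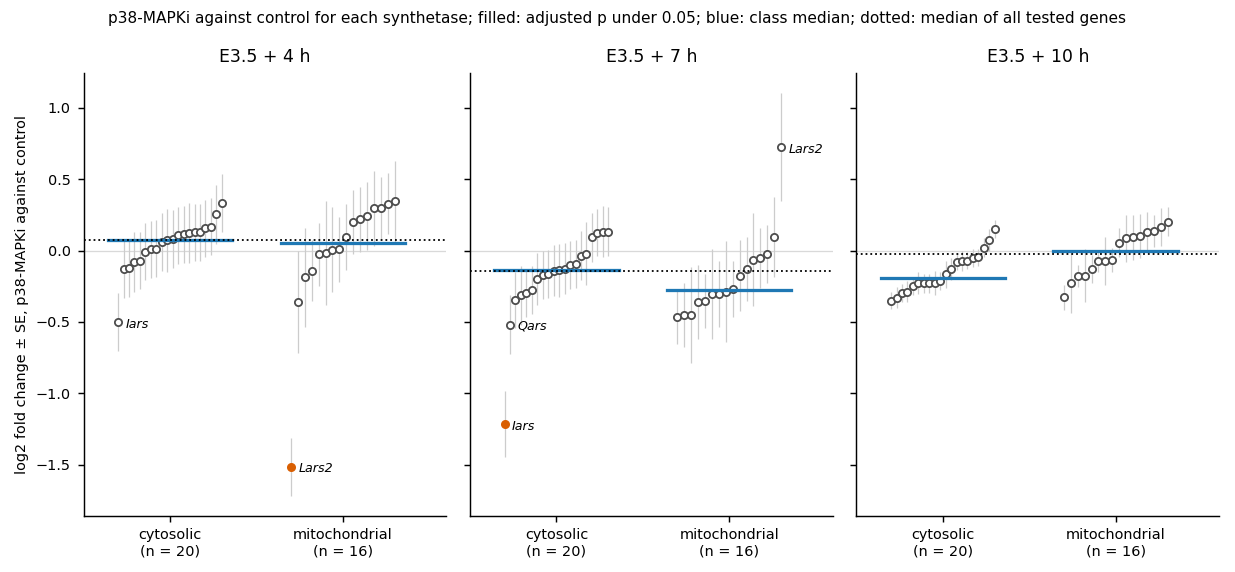
Log2 fold change of each synthetase, p38-MAPKi against control, with its standard error, at each time; points are members, filled where the adjusted p was under 0.05, blue lines are class medians and the dotted line is the median of all tested genes. At 10 h, where 0 members were called, 17 of 20 cytosolic members are negative (median -0.19) and 8 of 16 mitochondrial ones (median -0.01).

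Taking the 3 times together, the inhibitor libraries lay wholly below their controls at each of them for 2 members, Iars and Nars, beside 4.29% of 10466 genes, and wholly above at each for 0 members, beside 3.61%. Nars was singled out after its values were seen. Its mRNA, for the asparagine enzyme, stood at 7.44 and 7.62 in the control libraries and 7.39 and 7.42 in the inhibitor libraries at 4 h, at 7.50 and 7.46 in the control libraries and 7.27 and 7.36 in the inhibitor libraries at 7 h, and at 7.43 and 7.49 in the control libraries and 7.19 and 7.22 in the inhibitor libraries at 10 h. The gap was widest at 10 h, where the fold change was -0.25 ± 0.06 (SE, adjusted p = 0.0985).

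Iars, which charges isoleucine and belongs to the multisynthetase complex, was the cytosolic member with the clearest decrease. At 4 h its mRNA stood at 4.86 and 5.09 in the control libraries and 4.78 and 4.17 in the inhibitor libraries. At 7 h it stood at 4.74 and 5.15 in the control libraries and 3.48 and 3.99 in the inhibitor libraries, and at 10 h at 5.05 and 5.12 in the control libraries and 4.81 and 4.71 in the inhibitor libraries. Both inhibitor libraries were below both controls each time, and the 7 h inhibitor libraries were the lowest of all 12. The log2 fold change was -0.50 ± 0.20 (SE, adjusted p = 0.326) at 4 h, -1.21 ± 0.23 (SE, adjusted p = 0.0461) at 7 h and -0.33 ± 0.07 (SE, adjusted p = 0.091) at 10 h. It passed the limma test at 7 h. Voom called it at 10 h as well, at -0.31 (adjusted p = 0.0344), with adjusted p from 0.0344 to 0.999 over all alternatives. By the same test the effects were not shown to differ between times: the difference was -0.71 ± 0.34 (SE, adjusted p = 0.661) between 7 and 4 h and 0.88 ± 0.27 (SE, adjusted p = 0.101) between 10 and 7 h. Relative to the median of all genes at 7 h the change was -1.07. Over the 3 times fitted together, Iars fell by 0.68 log2 units (SE 0.16, adjusted p = 0.0409), the only synthetase among 2.67% of 11590 genes called.

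The 7 h value of Iars stayed between -1.47 and -0.96 under 15 alternatives, with adjusted p from 0.000357 to 0.348. The call was lost under 5 of them, among them without replicate 2 of the control, at -1.01 (adjusted p = 0.348), and with each library centred on its median, at -1.02 (adjusted p = 0.0694). It held without the shallow library, at -0.96 (adjusted p = 0.0213). The value over all times was lost as a call under 12 of 22 alternatives, with adjusted p from 0.0185 to 0.17. The libraries whose absence lost it were replicate 1 of the 4 h control (-0.73, adjusted p = 0.0677), replicate 2 of the 4 h control (-0.68, adjusted p = 0.0888), replicate 2 of the 4 h inhibitor group (-0.63, adjusted p = 0.106), replicate 1 of the 7 h control (-0.67, adjusted p = 0.0967), replicate 2 of the 7 h control (-0.56, adjusted p = 0.0828), replicate 1 of the 7 h inhibitor group (-0.55, adjusted p = 0.0518), replicate 2 of the 7 h inhibitor group (-0.68, adjusted p = 0.0973), replicate 2 of the 10 h control (-0.72, adjusted p = 0.0627) and replicate 2 of the 10 h inhibitor group (-0.71, adjusted p = 0.0638). At 4 h, leaving out replicate 1 of the inhibitor group gave -0.81 (adjusted p = 0.0201) and leaving out replicate 2 gave -0.20 (adjusted p = 0.998), with adjusted p from 0.0201 to 1 over all alternatives.

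The amino acid response element that ATF4 binds with C/EBP partners has the core TGATGNAAN, which was searched on both strands of the RefSeq promoter windows (GRCm38.p6, from 250 bases before to 50 bases after the start of each gene). It was found in 5 of the 13 cytosolic members that have a window, Aars, Gars, Iars, Tars and Yars, and in 0 of 14 mitochondrial members, beside 4.5% of all genes with a window and 3.95% of all 32851 windows. Among the amino acid response genes described further on it was found in 9 of 25. A match says only that these letters are in the window. The window of Iars (chr13:49681880-49682179, plus strand) is shown whole, since Iars was the called member, and the stretch around the matches for the other members, Aars (chr8:111033704-111033883, plus strand), Gars (chr6:55037945-55038003, plus strand), Tars (chr15:11399641-11399699, minus strand) and Yars (chr4:129189881-129189939, plus strand). Each is written 5′ to 3′ along the gene, with the core or its reverse complement in capitals.
Iars: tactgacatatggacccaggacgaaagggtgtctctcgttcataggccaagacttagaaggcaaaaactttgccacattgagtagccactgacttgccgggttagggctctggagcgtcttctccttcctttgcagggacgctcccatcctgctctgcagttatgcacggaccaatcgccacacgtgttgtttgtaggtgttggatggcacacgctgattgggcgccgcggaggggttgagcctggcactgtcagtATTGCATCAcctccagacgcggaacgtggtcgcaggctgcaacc
Tars: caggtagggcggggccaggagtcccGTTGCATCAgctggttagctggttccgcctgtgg
Aars: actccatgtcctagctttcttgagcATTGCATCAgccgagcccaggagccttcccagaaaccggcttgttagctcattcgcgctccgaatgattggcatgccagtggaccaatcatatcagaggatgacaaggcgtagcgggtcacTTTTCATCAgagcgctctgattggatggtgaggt
Gars: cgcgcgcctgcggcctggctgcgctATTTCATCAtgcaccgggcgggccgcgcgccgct
Yars: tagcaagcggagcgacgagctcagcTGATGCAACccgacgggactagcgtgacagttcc

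The Iars core has its first base at 7 from the start and lies on the opposite strand. Tars has it on the opposite strand, first base at -16 from the start, and Gars likewise at -31. Yars has it on the gene's own strand at 4, and Aars has 1 match at -113 and another at 9, both on the opposite strand. At 10 h the fold change was -0.35 for Tars, -0.33 for Iars, -0.29 for Aars, -0.17 for Yars and -0.07 for Gars. In all 5 both inhibitor libraries were below both controls at that time, as in 17 of the 20 cytosolic members and 29.6% of all tested genes. The part of the element in these values was not tested.

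**Figure D3:**
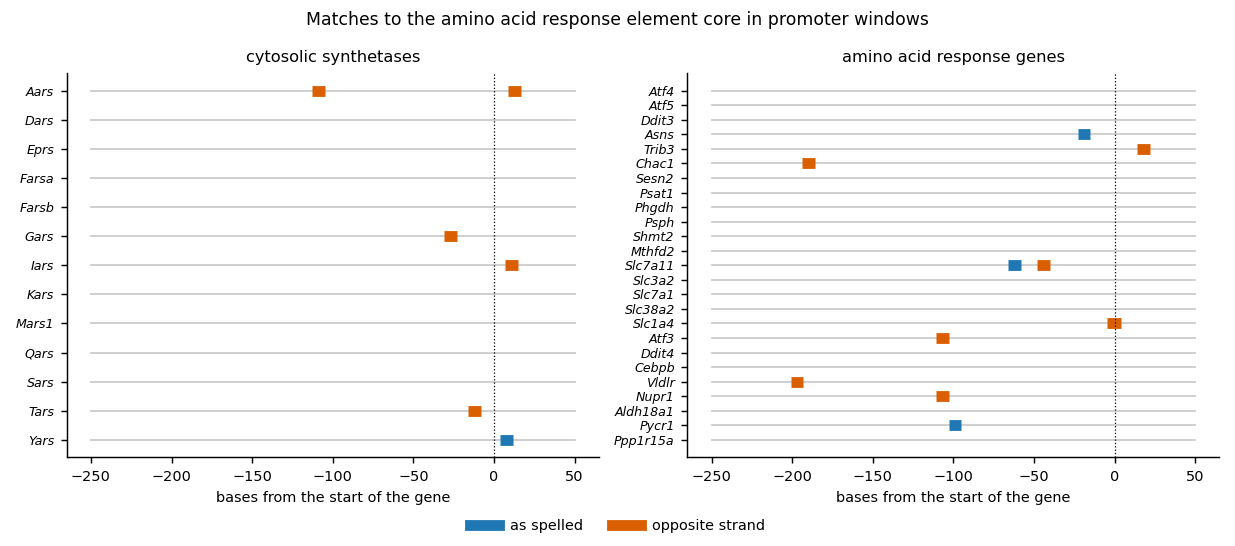
Position of each match to the response element core in the promoter windows of the cytosolic synthetases (left) and of the amino acid response genes (right), in bases from the start of the gene (dotted line); blue marks are on the gene's strand, orange on the opposite strand. Of the 13 cytosolic members with a window 5 hold a match, and of the 25 response genes with a window 9 do.

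Among other cytosolic members of the multisynthetase complex, Qars charges glutamine. It stood at 5.28 and 5.36 in the control libraries and 4.55 and 5.05 in the inhibitor libraries at 7 h and at 5.34 and 5.26 in the control libraries and 5.07 and 5.07 in the inhibitor libraries at 10 h. The inhibitor libraries were below the controls at both times, with the shallow 7 h library lowest; at 4 h they were level with the controls or above, at 5.45 and 5.36 against 5.23 and 5.36. The fold change was -0.52 ± 0.20 (SE, adjusted p = 0.142) at 7 h and -0.23 ± 0.07 (SE, adjusted p = 0.14) at 10 h. At 7 h it was -0.27 without the shallow library and -0.77 with it as the only inhibitor sample. The 7 h value was -0.32 once libraries were centred on their medians and -0.31 once values were corrected for gene length. Mars1, for methionine, stood at 6.30 and 6.30 in the control libraries and 6.04 and 5.97 in the inhibitor libraries at 10 h, a fold change of -0.30 ± 0.06 (SE, adjusted p = 0.0855). Its inhibitor libraries were below the controls at 7 h too, at 6.03 and 5.95 against 6.22 and 6.36, and overlapped them at 4 h, at 6.33 and 6.19 against 6.15 and 6.38. Of its exon sequence 68 bases lie opposite Ddit3, a gene called higher with the inhibitor at 4 and 7 h. At 10 h Ddit3 was not called, but it stood higher too, at 3.61 and 3.46 against 2.67 and 2.93 in the controls. Whether the counting kept the strands apart is not given in the sources used here.

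Tars, the threonine enzyme, had the largest 10 h change of the class. At that time it stood at 6.17 and 6.14 in the control libraries and 5.80 and 5.81 in the inhibitor libraries, with each pair of replicates within a few hundredths of a log2 unit. The fold change was -0.35 ± 0.06 (SE, adjusted p = 0.0642), just short of the threshold. Adjusted p ranged from 0.0191 to 0.809 over 15 alternatives, and Tars was called under 3 of them, among them voom and a filter at 10 RPKM. At the earlier times its libraries overlapped, at 6.03 and 6.21 against 5.94 and 6.27 at 4 h and 6.05 and 5.93 against 6.03 and 6.16 at 7 h. Vars, for valine, stood at 5.48 and 5.80 in the control libraries and 5.13 and 5.46 in the inhibitor libraries at 7 h. Its inhibitor libraries were lower there and at 10 h, where they read 5.31 and 5.31 against 5.50 and 5.54, and the fold change was -0.35 ± 0.20 (SE, adjusted p = 0.276) at 7 h and -0.21 ± 0.06 (SE, adjusted p = 0.144) at 10 h. At 4 h they overlapped, at 5.70 and 5.59 against 5.42 and 5.86. Without the shallow library the 7 h value was -0.18, and without replicate 2 of the control -0.18. It was -0.15 once libraries were centred on their medians and -0.19 once values were corrected for gene length.

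Farsa and Farsb encode the paired subunits of the phenylalanine enzyme, and their fold changes had opposite signs at 10 h. Farsa stood at 4.51 and 4.88 in the control libraries and 4.84 and 5.22 in the inhibitor libraries at 4 h, where replicate 2 of the inhibitor group was the highest and the groups overlapped, and at 4.79 and 4.81 in the control libraries and 4.54 and 4.59 in the inhibitor libraries at 10 h, where both inhibitor libraries were below both controls. The fold change was 0.33 ± 0.20 (SE, adjusted p = 0.64) at 4 h and -0.23 ± 0.07 (SE, adjusted p = 0.144) at 10 h. The 4 h value was 0.15 and 0.51 without replicate 1 and replicate 2 of the control, 0.52 and 0.14 without those of the inhibitor group, and 0.21 under quantile normalization. At 7 h the libraries of Farsa read 4.53 and 4.80 against 4.79 and 4.94. Farsb, chosen after its values were seen, had the largest positive value of its class at 10 h, at 5.71 and 5.67 in the control libraries and 5.81 and 5.87 in the inhibitor libraries, with no overlap, and 0.15 ± 0.06 (SE, adjusted p = 0.246). It was also above its controls at 4 h, at 5.90 and 5.87 against 5.78 and 5.73. Wars, for tryptophan, stood at 4.57 and 4.84 in the control libraries and 4.97 and 4.95 in the inhibitor libraries at 4 h, higher under the inhibitor without overlap, 0.25 ± 0.20 (SE, adjusted p = 0.737). The value was 0.12 without replicate 1 of the control, 0.38 without replicate 2 and 0.14 under quantile normalization. Its libraries overlapped at 7 h, at 5.01 and 4.80 against 4.86 and 4.68, and at 10 h, at 4.86 and 4.81 against 4.70 and 4.83. The lysine enzyme Kars, also chosen after its values were seen, was above its controls at 4 h (6.02 and 5.92 against 5.70 and 5.90) and below them at 10 h (5.86 and 5.86 against 5.93 and 5.95), and the difference between the times was not called.

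The other cytosolic members, for the remaining amino acids and for glutamate and proline together in Eprs, had fold changes from -0.12 (Lars) to 0.16 (Hars) at 4 h, from -0.31 (Eprs) to 0.12 (Hars) at 7 h and from -0.29 (Aars) to 0.02 (Hars) at 10 h. None of them passed the test, and at 10 h Aars, Cars and Sars, for alanine, cysteine and serine, had an unadjusted p under 0.05. Aars, chosen after its values were seen, stood at 5.48 and 5.61 in the control libraries and 5.27 and 5.25 in the inhibitor libraries at that time, wholly lower under the inhibitor, -0.29 ± 0.07 (SE, adjusted p = 0.105). Of its exons 1326 bases overlap Exosc6 on the same strand, the only such overlap among the members, and reads there cannot be told apart by strand.

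Among the mitochondrial members other than Lars2, none passed the test in any comparison with the inhibitor. Iars2, for isoleucine in mitochondria, stood at 4.04 and 4.18 in the control libraries and 3.54 and 3.75 in the inhibitor libraries at 7 h. Like cytosolic Iars it was wholly lower under the inhibitor at that time, and its fold change was -0.47 ± 0.19 (SE, adjusted p = 0.147), with -0.36 without the shallow library, -0.27 once libraries were centred on their medians and -0.16 once values were corrected for gene length. At 4 h it overlapped, at 4.12 and 3.58 against 3.85 and 4.14, as it did at 10 h, at 4.08 and 4.14 against 4.14 and 4.23. Of its exons 2148 bases lie opposite other genes. Yars2, for tyrosine, stood at 3.27 and 3.18 in the control libraries and 2.54 and 2.999 in the inhibitor libraries at 7 h and at 3.27 and 3.29 in the control libraries and 2.98 and 2.93 in the inhibitor libraries at 10 h. Both inhibitor libraries were below both controls at each of these times, with the shallow library lowest, and the fold change was -0.45 ± 0.23 (SE, adjusted p = 0.222) and -0.33 ± 0.09 (SE, adjusted p = 0.12). Without the shallow library the 7 h value was -0.22, and with it as the only inhibitor sample -0.68. The value was -0.26 with median centring and -0.25 under quantile normalization. Its 4 h libraries overlapped, at 3.16 and 3.06 against 2.97 and 3.24.

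Mars2, for methionine, stood at 1.28 and 1.16 in the control libraries and 0.90 and 0.82 in the inhibitor libraries at 4 h and at 1.28 and 1.54 in the control libraries and 0.82 and 1.11 in the inhibitor libraries at 7 h. Its inhibitor libraries were lower at both times, and at 10 h they overlapped the controls, at 1.27 and 1.46 against 1.55 and 1.32. With its low level the errors were wide: -0.36 ± 0.36 (SE, adjusted p = 0.787) at 4 h and -0.45 ± 0.34 (SE, adjusted p = 0.394) at 7 h. Corrected for gene length, the 4 h value was -0.15. Cars2, for cysteine, went the other way at 4 h, at 1.54 and 1.84 in the control libraries and 2.07 and 2.01 in the inhibitor libraries, 0.34 ± 0.28 (SE, adjusted p = 0.745), or 0.19 without replicate 1 of the control. At 7 h it read 2.24 and 1.73 against 1.81 and 1.97, and at 10 h it was above its controls again, at 1.99 and 1.85 against 1.74 and 1.77. Hars2, for histidine, stood at 3.04 and 3.16 in the control libraries and 3.22 and 3.39 in the inhibitor libraries at 10 h, the largest positive value of its class then, 0.20 ± 0.10 (SE, adjusted p = 0.331). It was 0.12 without replicate 2 of the inhibitor group and 0.14 without replicate 1 of the control. At 7 h the shallow library was lowest, at 2.72 and 3.33 against 3.08 and 3.32, and at 4 h the values were 3.22 and 3.09 against 3.04 and 3.08. Sars2, for serine, chosen after its values were seen, was above its controls at 4 h (4.17 and 4.18 against 3.73 and 3.97) and below them at 10 h (3.55 and 3.60 against 3.74 and 3.76), and the difference between the effects was -0.50 ± 0.18 (SE, adjusted p = 0.463).

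The remaining 9 mitochondrial members had fold changes from -0.19 (Nars2) to 0.30 (Tars2) at 4 h, from -0.35 (Rars2) to -0.02 (Tars2) at 7 h and from -0.18 (Fars2) to 0.14 (Pars2) at 10 h, and none passed the test at any time. At 7 h all of them were negative, as was the median of all genes. Pars2, for proline, chosen after its values were seen, was lowest in replicate 1 of the 4 h control, at 1.64 and 2.47 in the controls of that time, and within 2.30 to 2.68 elsewhere.

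**Figure D4:**
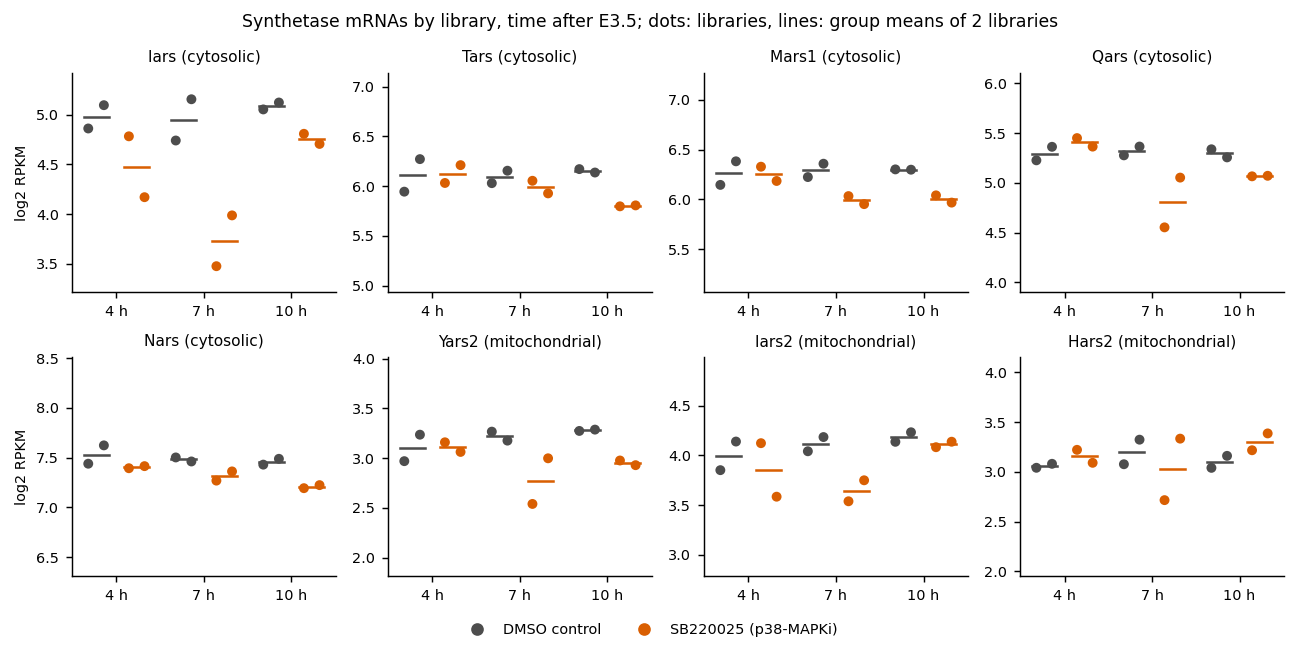
Log2 RPKM of 8 synthetase mRNAs in each library at 4, 7 and 10 h after E3.5, grey for DMSO and orange for SB220025, with group means of 2 libraries as lines. Iars is lower under the inhibitor at each time, Tars, Mars1, Qars and Nars are lower at 10 h, and Hars2 is higher at 10 h.

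Lars2, the mitochondrial leucine enzyme, was the most variable member. It stood at 8.21 and 6.03 in the control libraries and 5.46 and 5.76 in the inhibitor libraries at 4 h, at 5.32 and 4.97 in the control libraries and 6.57 and 5.17 in the inhibitor libraries at 7 h, and at 5.71 and 4.99 in the control libraries and 5.16 and 5.08 in the inhibitor libraries at 10 h. Replicate 1 of the 4 h control was the highest by far, with 56313 reads against 6946 to 13276 in the other libraries. By log2 RPKM the shallow 7 h inhibitor library came next. Cytosolic Lars, for the same amino acid, stayed within 4.97 to 5.54 in all 12. Lars2 passed the test at 4 h, -1.51 ± 0.20 (SE, adjusted p = 1.92e-10), and in the controls between 4 and 7 h, -1.98 ± 0.19 (SE, adjusted p = 2.91e-22). At 4 h and in these controls limma took the variance from genes at like levels alone, so the p-values do not carry the spread of Lars2 itself. Both calls rest on that control library: without it the values were -0.42 (adjusted p = 1) and -0.89 (adjusted p = 0.404). Over all alternatives the adjusted p ran from 5.15e-16 to 1 for the first, lost under 7 of 15, and from 1.84e-22 to 0.999 for the second, lost under 8 of 15.

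At 7 h the fold change of Lars2 was positive, 0.72 ± 0.38 (SE, adjusted p = 0.24). It rested on the shallow library, without which it was 0.02. With that library as the only inhibitor sample it was 1.42. At 10 h it was -0.23 ± 0.21 (SE, adjusted p = 0.583), and it ran from -0.59 (adjusted p = 0.0423) without replicate 2 of the control to 0.13 (adjusted p = 0.595) without replicate 1. Lars2 was called under 2 of 15 alternatives at 7 h and under 1 of 15 at 10 h.

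Rows of the table that overlap ribosomal RNA repeats were correlated with Lars2, apart from CT010467.1. Gm42418 stood at 14.63 in replicate 1 of the 4 h control and at 12.84 in the shallow library, against 10.97 to 12.01 elsewhere. Across the 12 libraries Lars2 and Gm42418 had Pearson's r = 0.98 (permutation p = 4e-05, adjusted over 5 rows 0.0002) and Spearman's rho = 0.93 (permutation p = 7e-05, adjusted 0.00017). Without the 2 libraries farthest from the median of Gm42418, which are those just named, r was 0.832. Gm15564 gave r = 0.893 (permutation p = 0.00062, adjusted 0.001) and rho = 0.944 (permutation p = 2e-05, adjusted 0.0001), and r = 0.881 without replicate 1 of the 4 h and of the 10 h controls. For Gm26917, r = 0.835 (permutation p = 0.00044, adjusted 0.001) and rho = 0.685 (permutation p = 0.017, adjusted 0.022), with r = 0.523 without its 2 farthest libraries. AY036118 gave r = 0.732 (permutation p = 0.0021, adjusted 0.0026) and rho = 0.776 (permutation p = 0.0043, adjusted 0.0071), with r = 0.574, and CT010467.1 gave r = 0.301 (permutation p = 0.26, adjusted 0.26) and rho = 0.042 (permutation p = 0.9, adjusted 0.9), with r = 0.184. Gm42418 and Gm15564 were called lower at 4 h (-1.44 and -2.18), and without replicate 1 of the control they were at -0.07 and -1.45, the latter still called. The call of Gm15564 was lost under 6 of 15 alternatives, with an untrended variance (0.0821), median centring (0.313), quantile normalization (0.286), no filter (0.205), voom (0.334) and 1 fit over all libraries (0.257), adjusted p in parentheses, in a range from 7.82e-36 to 0.334, and that of Gm42418 under 7 of 15. The part of such sequence in the Lars2 values was not tested.

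**Figure D5:**
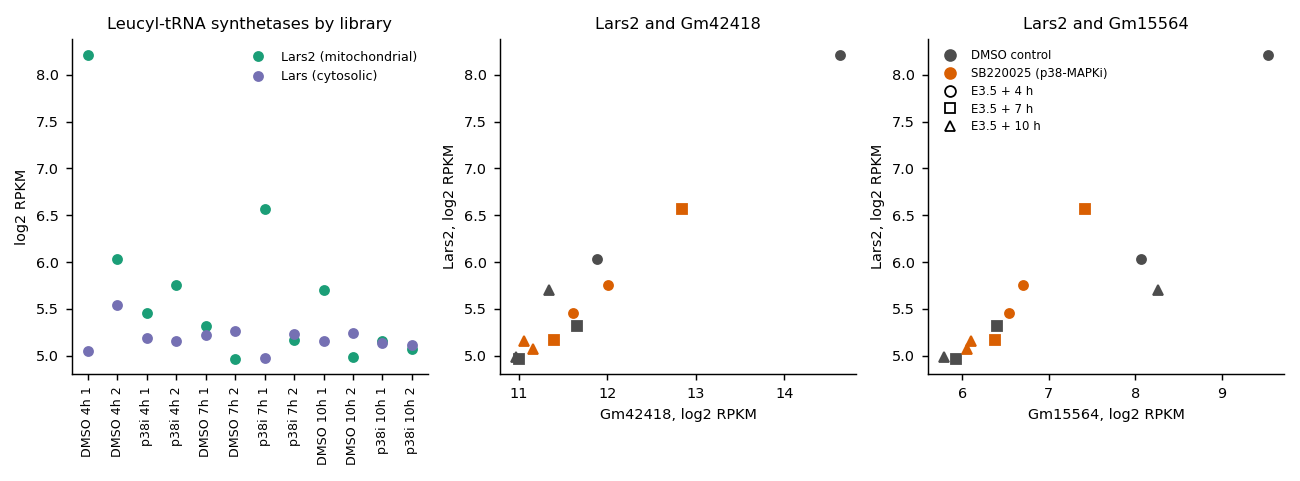
Left, log2 RPKM of Lars2 and Lars in each library; middle and right, Lars2 against the ribosomal RNA repeat rows Gm42418 and Gm15564, with 1 point per library. Lars2 reaches 8.21 in replicate 1 of the 4 h control, where Gm42418 reaches 14.63, while Lars stays within 4.97 to 5.54.

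Whether the effect of the inhibitor differed between times was tested directly. No synthetase passed: limma called 0 between 7 and 4 h, beside 0.00884% of 11311 genes, 0 between 10 and 7 h, beside 0.00877% of 11400, and 0 between 10 and 4 h, beside 0% of 11288. With an unadjusted p under 0.05 there were 2, 1 and 2 members, beside 772 of 11311, 2995 of 11400 and 1113 of 11288 genes. Voom called 0 members in each, and 0, 720 and 0 genes. Without replicate 2 of the 7 h inhibitor group, which leaves the shallow library alone, 1 (Lars2) and 5 (Iars, Qars, Hars2, Lars2 and Sars2) were called in the comparisons with 7 h, beside 2.62% of 11171 genes and 25.8% of 11254 genes. The effect on Iars was 0.88 ± 0.27 (SE, adjusted p = 0.101) higher at 10 h than at 7 h, the smallest adjusted p among the members in that comparison. A fit with the replicate block called Iars there, among 610 genes, though the labels do not say whether equal replicate numbers pair the samples. For Lars2 the effect at 7 h exceeded that at 4 h by 2.24 ± 0.78 (SE, adjusted p = 0.661). This difference rests on 2 libraries: the 4 h value was -0.42 without replicate 1 of the control, and the 7 h value 0.02 without the shallow library. The fold change of Qars went from positive to negative between 4 and 7 h, a difference of -0.63 ± 0.26 (SE, adjusted p = 0.661), of which the 7 h part was -0.27 without the shallow library, against -0.52 with it. The cytosolic median of the differences was -0.20 between 10 and 4 h, with 17 of 20 members negative, beside -0.08 over all genes. It was -0.02 under quantile normalization and -0.06 without replicate 1 of the 4 h control, beside 0.01 and 0.03 over all genes.

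Fitted over all 3 times together, the cytosolic median was -0.09, with 16 of 20 members negative, and the mitochondrial median -0.06, with 9 of 16, beside -0.03 over all genes. After Iars, the members with an unadjusted p under 0.05 were the cytosolic Mars1 and Nars, at -0.20 ± 0.08 (SE, adjusted p = 0.156) and -0.18 ± 0.07 (SE, adjusted p = 0.144), and the mitochondrial Mars2 and Yars2, at -0.30 ± 0.14 (SE, adjusted p = 0.196) and -0.26 ± 0.11 (SE, adjusted p = 0.171). All were negative, and with Iars they are 5 of 36 members, beside 2903 of 11590 genes. With quantile normalization or with the length trend removed, Nars was called beside Iars (among 5.91% of 11590 genes and 3.58% of 11590 genes). Once values were corrected for gene length, the cytosolic and mitochondrial medians were -0.0046 and -0.0036, beside -0.02 over all genes. With libraries centred on their medians they were -0.03 and -0.0057, beside 0.03 over all genes. They were -0.06 and -0.0031 without the shallow library, beside 0.0052 over all genes. Without replicate 1 of the 4 h control they were -0.15 and -0.06, beside -0.06 over all genes.

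The controls alone show how the synthetases moved with time in culture. Between 4 and 7 h Lars2 was the only synthetase called, as given above, beside 0.492% of 10776 genes. Its call is lost without replicate 1 of the 4 h control. Of the 5 ribosomal RNA repeat rows 4 were called lower as well: Gm42418 (-1.92), AY036118 (-1.65), Gm26917 (-0.96) and Gm15564 (-2.635). Without that library they were at -0.55, -0.84, -0.425 and -1.90. These calls were lost under 9 of 15, 9 of 14, 9 of 15 and 7 of 15 alternatives. Between 7 and 10 h limma called 0 members, beside 0.0552% of 10873 genes, with 0 at an unadjusted p under 0.05, beside 412 of 10873 genes, and 0 by voom. Between 4 and 10 h limma called 0 members, beside 0.471% of 10825. There 1, Lars2, had an unadjusted p under 0.05, beside 1646 of 10825 genes, and voom called 0. Of the repeat rows Gm26917 was called lower then, at -1.62, and lost its call under 5 of 15 alternatives. The cytosolic median was 0.03 from 4 to 7 h, -0.02 from 7 to 10 h and 0.04 from 4 to 10 h, and the mitochondrial median 0.13, -0.02 and 0.06. All genes shifted by 0.11, 0.02 and 0.14; relative to that the cytosolic medians were -0.08, -0.05 and -0.10. The mitochondrial ones were 0.02, -0.05 and -0.08. Centring each library on its median turned the positive cytosolic values to -0.08 and -0.10, and moved the mitochondrial ones to 0.02 and -0.08. All genes were then at 0.0003 and 0.0004. Without replicate 1 of the 4 h control all 4 of these class medians were negative. They were -0.11 and -0.10 for the cytosolic class and -0.0071 and -0.09 for the mitochondrial class, beside 0.02 and 0.04 over all genes. Without replicate 2 of the 4 h control, 3 members were called between 4 and 10 h (Aars, Lars2 and Pars2), beside 11.5% of 10652 genes. Without either replicate of the 10 h control, 1 was called, Lars2, beside 0.435% of 10583 genes and 0.538% of 10597 genes.

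The partners of the synthetases include the scaffold proteins Aimp1, Aimp2 and Eef1e1, the mitochondrial amidotransferase subunits, the formyltransferase Mtfmt and the elongation factors that carry charged transfer RNA. Of the 14 tested, limma called 0 at each time, beside 0.909%, 2.13% and 0.803% of all tested genes; 1, 1 and 1 had an unadjusted p under 0.05, beside 1016 of 10781, 3102 of 10940 and 2172 of 10959 genes, and voom called 0, 1 and 0, against 0 of 10781, 1117 of 10940 and 521 of 10959 genes. Their median fold change was 0.16, 0.13 and -0.07 at 4, 7 and 10 h, beside 0.07, -0.14 and -0.02 over all genes.

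Amino acid response genes, to which several cytosolic synthetases belong as ATF4 targets, were counted in the same way. Of 23 tested at 4 h, 2 rose and 1 fell; of 22 at 7 h, 1 rose and 0 fell; of 22 at 10 h, 0 rose and 1 fell, beside 0.909%, 2.13% and 0.803% of all tested genes called in either direction. An unadjusted p under 0.05 was found for 6, 5 and 11 of them, beside the same 1016 of 10781, 3102 of 10940 and 2172 of 10959 genes, and voom called 0, 4 and 6, against 0 of 10781, 1117 of 10940 and 521 of 10959 genes in all. Their median was 0.06, 0.14 and -0.25 at the 3 times, beside 0.07, -0.14 and -0.02 over all genes, and 17 of 22 were negative at 10 h. Ddit3, a stress transcription factor, stood at 2.40 and 2.89 in the control libraries and 3.72 and 4.02 in the inhibitor libraries at 4 h and at 3.03 and 2.69 in the control libraries and 4.43 and 4.24 in the inhibitor libraries at 7 h, and rose at both times, by 1.23 ± 0.23 (SE, adjusted p = 4.52e-05) and 1.47 ± 0.20 (SE, adjusted p = 0.0397). Asns, the asparagine synthetase, stood at 3.40 and 3.94 in the control libraries and 2.95 and 2.57 in the inhibitor libraries at 4 h and fell then, -0.91 ± 0.23 (SE, adjusted p = 0.0123). Cebpb, a C/EBP factor, stood at 1.38 and 2.29 in the control libraries and 3.08 and 2.60 in the inhibitor libraries and rose, 1.01 ± 0.26 (SE, adjusted p = 0.0158). Single libraries and the processing both decide these calls. At 4 h Ddit3 lost its call without replicate 1 of the 4 h control (0.98, adjusted p = 0.369), Asns without replicate 1 of the 4 h control (-1.18, adjusted p = 0.129), replicate 2 of the 4 h control (-0.64, adjusted p = 0.798) and replicate 2 of the 4 h inhibitor group (-0.72, adjusted p = 0.21), and Cebpb without replicate 1 of the 4 h control (0.55, adjusted p = 1) and replicate 1 of the 4 h inhibitor group (0.77, adjusted p = 0.1). At 7 h Ddit3 lost it without replicate 2 of the 7 h control (1.30, adjusted p = 0.253). With every library kept, the 4 h call of Ddit3 was also lost with an untrended variance (0.123), median centring (0.295), quantile normalization (0.286), no filter (0.205), voom (0.334) and 1 fit over all libraries (0.0597), adjusted p in parentheses. The call was lost under 7 of 15 alternatives for Ddit3 at 4 h and 4 of 15 at 7 h, 9 of 15 for Asns and 10 of 14 for Cebpb. Over all alternatives the adjusted p ran from 3.99e-05 to 0.369 and from 0.000305 to 0.253 for Ddit3, from 0.00169 to 0.798 for Asns and from 0.00322 to 1 for Cebpb. At 10 h Psat1, of serine synthesis, stood at 6.22 and 6.25 in the control libraries and 5.71 and 5.73 in the inhibitor libraries and fell, -0.51 ± 0.06 (SE, adjusted p = 0.0398); it lost its call without replicate 2 of the 10 h control (-0.50, adjusted p = 0.0519), in adjusted p from 0.00188 to 0.815 over all alternatives, lost under 4 of 15. Atf4 itself stood at 6.77 and 6.995 in the control libraries and 6.44 and 6.54 in the inhibitor libraries at 10 h and did not pass, -0.39 ± 0.09 (SE, adjusted p = 0.0931). Ddit3 was not called at 10 h, where it stood at 2.67 and 2.93 in the control libraries and 3.61 and 3.46 in the inhibitor libraries. Over the 3 times together Ddit3 rose, 1.14 ± 0.14 (SE, adjusted p = 0.00419). The amino acid transporters Slc38a2 and Slc1a4 fell, -1.29 ± 0.22 (SE, adjusted p = 0.0132) and -0.996 ± 0.23 (SE, adjusted p = 0.0392). Over the alternatives Slc38a2 ran from -1.41 to -0.79 and Slc1a4 from -1.17 to -0.55. Slc38a2 lost its call with no filter (adjusted p = 0.0662). Slc1a4 lost its call without replicate 2 of the 4 h control (-0.93, adjusted p = 0.0971), replicate 2 of the 4 h inhibitor group (-1.03, adjusted p = 0.0811), replicate 1 of the 7 h control (-0.97, adjusted p = 0.0918), replicate 2 of the 7 h control (-0.94, adjusted p = 0.0892), replicate 2 of the 7 h inhibitor group (-0.90, adjusted p = 0.0935), replicate 1 of the 10 h control (-1.02, adjusted p = 0.0575), replicate 2 of the 10 h control (-0.94, adjusted p = 0.0801), replicate 1 of the 10 h inhibitor group (-0.89, adjusted p = 0.0605) and replicate 2 of the 10 h inhibitor group (-1.07, adjusted p = 0.0614), in adjusted p from 0.0242 to 0.116 over all alternatives, and its call was lost under 12 of 21.

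Of the eIF2 kinases and their regulators, 6 were tested, with 0 called at 4 h (0 at an unadjusted p under 0.05, 0 by voom), beside 0.909% of all tested genes; there Impact (-0.39), Eif2ak4 (-0.23) and Eif2ak3 (-0.18) had the largest values. Their median was -0.18, -0.78 and -0.05 at 4, 7 and 10 h, beside 0.07, -0.14 and -0.02 over all genes. At 7 and at 10 h 1 was called, Impact, beside 2.13% and 0.803% of all tested genes. An unadjusted p under 0.05 was found for 3 and 1 of them, beside 3102 of 10940 and 2172 of 10959 genes. Voom called 2 and 1, against 1117 and 521 genes in all. Impact, an inhibitor of GCN2 activation, stood at 3.88 and 3.88 in the control libraries and 2.99 and 2.81 in the inhibitor libraries at 7 h and at 4.28 and 4.12 in the control libraries and 3.60 and 3.38 in the inhibitor libraries at 10 h. It fell at both times, -0.98 ± 0.19 (SE, adjusted p = 0.0461) and -0.71 ± 0.11 (SE, adjusted p = 0.0482), and over the 3 times together, -0.69 ± 0.11 (SE, adjusted p = 0.0119). Over the 3 times Impact lost its call with no filter (adjusted p = 0.0696). It lost its call without replicate 1 of the 7 h control (-0.98, adjusted p = 0.0968) and replicate 2 of the 7 h control (-0.98, adjusted p = 0.351) at 7 h and without replicate 1 of the 10 h control (-0.63, adjusted p = 0.0627) and replicate 2 of the 10 h inhibitor group (-0.60, adjusted p = 0.057) at 10 h, in adjusted p from 0.00708 to 0.351 and from 0.00575 to 0.326 over all alternatives, lost under 6 of 15 and 5 of 15. Eif2ak4, which encodes the GCN2 kinase, was chosen after its values were seen. It stood at 1.64 and 1.87 in the control libraries and 1.16 and 1.19 in the inhibitor libraries at 7 h, -0.58 ± 0.30 (SE, adjusted p = 0.232). Wider gaps at 7 h were those of Eif2ak3 and Gcn1l1. Eif2ak3 stood at 2.30 and 2.63 in the controls and 0.49 and 1.73 under the inhibitor. Gcn1l1 stood at 2.87 and 3.39 in the controls and 2.07 and 2.21 under the inhibitor.

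Among the lineage markers Cdx2 and Gata3, of the trophectoderm, fell over the 3 times together, -0.38 ± 0.08 (SE, adjusted p = 0.0336) and -0.51 ± 0.09 (SE, adjusted p = 0.0169), beside 2.67% of all genes called. The 6 trophectoderm markers did not share a sign, with 3 positive, 3 negative and a median of -0.04, beside -0.03 over all genes. The 4 primitive endoderm markers were all negative over the 3 times, with a median of -0.29, and at 7 h, with -0.46 beside -0.14 over all genes; at 4 and 10 h 2 and 2 of 4 were negative. Limma called 0 of the primitive endoderm markers over the 3 times or at 7 h, beside 2.67% and 2.13% of all genes. An unadjusted p under 0.05 was found for 0 and 1, beside 2903 of 11590 and 3102 of 10940 genes. Voom called 0 and 0, against 669 and 1117 genes in all. Of the 4 epiblast markers 3 were negative over the 3 times, with a median of -0.14. Limma called 0, with 1 at an unadjusted p under 0.05 and 0 by voom, beside the same counts over all genes. Cdx2 lost its call without replicate 1 of the 4 h control (-0.39, adjusted p = 0.0563), replicate 2 of the 4 h control (-0.35, adjusted p = 0.0873), replicate 2 of the 4 h inhibitor group (-0.38, adjusted p = 0.0759), replicate 1 of the 7 h control (-0.33, adjusted p = 0.0807), replicate 2 of the 7 h inhibitor group (-0.35, adjusted p = 0.0939), replicate 2 of the 10 h control (-0.39, adjusted p = 0.0578) and replicate 2 of the 10 h inhibitor group (-0.40, adjusted p = 0.0626), in adjusted p from 0.0118 to 0.0939 over all alternatives, lost under 11 of 22. Gata3 lost its call under 1 of 22 alternatives, with no filter (adjusted p = 0.0662). The part of a shift between cell types in the synthetase values was not tested.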

How the data were processed

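The deposited table holds log2 RPKM (reads scaled by the length of the gene model and by the library total) that the authors made from 1 library per pool: reads were trimmed with Trim Galore 0.4.1, aligned to GRCm38 with HISAT2 2.0.5 and counted in SeqMonk. Whether counting kept the strands apart, how isoforms were joined and how reads with several alignments were treated is not given in the sources used here. Library totals, gene lengths and whole reads were recovered from the deposited values, for 34243 of 34245 genes within 0.02 reads, and depths come from them.

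A gene was tested in a comparison if 2 or more of its libraries reached 1 RPKM, and the test was made on the log2 values with limma 3.58.1 (lmFit, then eBayes with a trend on mean expression, in R 4.3.3). Adjusted p is Benjamini-Hochberg over all tested genes, two-sided, and a gene is called under 0.05. The 10 comparisons were inhibitor against control at each time, the differences between those effects, the effect over all times with time as a term, and the controls between times. Errors are the standard errors of the fit, from n = 2 libraries per group. Where a replicate is left out, the lone sample is assumed to vary like the other group. Correlations used scipy 1.17.1 with a permutation test (100000 resamples, n = 12, two-sided). Python 3.11.15, numpy 2.4.6, pandas 2.3.3 and matplotlib 3.10.9 were used throughout, and exon overlaps come from GENCODE M21.

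Members and lists were chosen with earlier results of these data known. The lists are partners of the synthetases, amino acid response genes, eIF2 kinases with their regulators, rows that overlap ribosomal RNA repeats, and markers of cell types. The rule for naming gives full values for members called in any comparison and, for each inhibitor comparison, for the 3 members of each class with the largest absolute fold change; others are given by range and count. In the other lists called genes are named, and the largest changes are given only for the eIF2 kinases at 4 h. Atf4, Eif2ak4, Eif2ak3 and Gcn1l1 are named outside this rule. With that knowledge, the comparisons, the naming rule and the alternatives were fixed before the data were examined here, and members named outside the rule are said to be chosen after their values were seen. The alternatives were each library centred on its median, quantile normalization, an untrended variance, a filter at 10 RPKM or none, pseudocounts of 0.1 and 1, a loess trend on gene length removed (span 0.5), voom on recovered reads with TMM factors computed by hand, 1 fit over the 12 libraries, the replicate number as a block, and each library left out in turn. The fitting code was tested on simulated data. Promoter windows were not given for Cars, Hars, Lars, Nars, Rars, Vars, Wars, Hars2 and Pars2.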

Additional observations from a re-analysis of the deposited data

How the results depend on the processing

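The 10 comparisons are listed here in a fixed order: the inhibitor at 4, 7 and 10 h, the difference between effects of 7 and 4 h, of 10 and 7 h and of 10 and 4 h, the effect over all times, and the controls of 7 against 4 h, 10 against 7 h and 10 against 4 h. In that order the genes called were 98, 233, 88, 1, 1, 0, 310, 53, 6 and 51, and the synthetases called were 1, 1, 0, 0, 0, 0, 1, 1, 0 and 0.

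Without the trend in the variance the genes called were 11, 0, 9, 0, 1, 5, 121, 5, 14 and 26, and the synthetases 0, 0, 0, 0, 0, 0, 0, 0, 0 and 0. With each library centred on its median the genes called were 0, 0, 89, 0, 0, 0, 584, 0, 3 and 37, and the synthetases 0, 0, 0, 0, 0, 0, 1, 0, 0 and 0. The cytosolic median at 7 h was 0.0561 and the mitochondrial median at 7 h was -0.0833, beside 0.0543 over all genes. After quantile normalization the genes called were 0, 12, 103, 0, 1, 0, 685, 0, 5 and 43, and the synthetases 0, 0, 0, 0, 0, 0, 2, 0, 0 and 0, with Nars newly called for all times. The cytosolic median at 4 h was -0.0604 and the mitochondrial median at 7 h was -0.0877, beside 0.0017 and -0.0383 over all genes. With no filter on low values the genes called were 0, 1236, 0, 1, 0, 0, 9, 0, 16 and 61, and the synthetases 0, 1, 0, 0, 0, 0, 0, 0, 0 and 0.

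With the filter at 10 RPKM the genes called were 36, 947, 166, 0, 538, 0, 271, 12, 0 and 276, and the synthetases 1, 1, 1, 0, 0, 0, 1, 1, 0 and 1, with Tars newly called for the inhibitor at 10 h and Lars2 newly called for the controls of 10 and 4 h. With a pseudocount of 0.1 the genes called were 103, 348, 100, 1, 1, 0, 317, 54, 9 and 60. With a pseudocount of 1 the genes called were 115, 509, 100, 1, 1, 0, 327, 52, 3 and 60. With the length trend removed the genes called were 115, 1, 111, 0, 1, 0, 415, 33, 5 and 125, and the synthetases 1, 0, 0, 0, 0, 0, 2, 1, 0 and 0, with Nars newly called for all times. The mitochondrial median at 7 h was -0.13, beside -0.12 over all genes.

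With voom and TMM the genes called were 0, 1117, 521, 0, 720, 0, 669, 0, 8 and 296, and the synthetases 0, 1, 4, 0, 0, 0, 1, 0, 0 and 0, with Aars, Iars, Mars1 and Tars newly called for the inhibitor at 10 h. In 1 fit over the 12 libraries, for the inhibitor and control comparisons alone the genes called were 0, 2586, 0, 0, 0 and 0, and the synthetases 0, 2, 0, 0, 0 and 0, with Qars newly called for the inhibitor at 7 h.

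With the replicate block the genes called were 75, 2023, 410, 2, 610, 0, 76, 0, 28 and 536, and the synthetases 1, 2, 1, 0, 1, 0, 0, 0, 0 and 1, with Lars2 newly called for the inhibitor at 7 h, Tars newly called for the inhibitor at 10 h, Iars newly called for the effects of 10 and 7 h and Lars2 newly called for the controls of 10 and 4 h. Whether equal replicate numbers pair the samples is not given by the labels. Differences from the group mean had r from -0.0124 to 0.167 across genes. Genes are not independent replicates, so these values cannot decide it.

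Leaving out 1 library at a time gave, in the same order, 9 to 424, 0 to 2919, 78 to 140, 0 to 293, 0 to 2905, 0 to 557, 64 to 589, 10 to 58, 3 to 221 and 46 to 1228 genes called, and 0 to 2, 0 to 5, 0 to 1, 0 to 1, 0 to 5, 0 to 0, 0 to 1, 0 to 1, 0 to 0 and 0 to 3 synthetases called. The cytosolic median ran from -0.0884 to 0.18, -0.23 to -0.0911 and -0.20 to -0.15 at 4, 7 and 10 h, and the mitochondrial median from -0.12 to 0.25, -0.37 to -0.14 and -0.0536 to 0.0847.

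Of the fold changes given for named genes under these alternatives, 472 kept their direction and their side of the threshold, 155 were no longer called, 12 kept their direction and were called anew, and 1 that was not called changed sign. Of the called values, 0 changed sign, and 1, Gm42418 at 4 h, was at 0 after quantile normalization. Of the class medians at 4, 7 and 10 h, 82 stayed within 1 SD of the class median between replicates and 8 moved further. The causes of these differences were not tested. Fewer genes are tested at 10 RPKM, and fewer samples enter where a library is left out. Depth is lowest for Fars2, with 123 reads in the library where it had the fewest.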
